A study of Danio rerio with 4 samples.

Results

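The mitotic kinesins are motor proteins that use ATP to walk along, slide or take apart the microtubules of the dividing cell. Some push the spindle poles apart, some carry or align chromosomes, and some bundle the microtubules that remain between the separating daughter cells and so prepare the cut between them. Cells make most of them only while they divide, and in a zebrafish embryo at this stage dividing cells are found above all in the brain, the retina and the tail. Here 10 of them were followed, *kif11*, *kif14*, *kif15*, *kif18a*, *kif22*, *kif23*, *kif2c*, *kif4*, *kifc1* and *cenpe*, out of 31388 genes in the table, and each symbol matched 1 row. The genes were chosen by name, but with the values of these same libraries already known, and the difference between control and MZ*tulp3* was part of what was known. Their differences are therefore a description, from which nothing is inferred.

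RNA came from whole zebrafish embryos at 2 days post-fertilization (dpf), in 2 libraries labelled wild type (control) and 2 labelled MZ*tulp3*. The MZ*tulp3* embryos came from a CRISPR/Cas9 knockout line and lacked *tulp3*, an adapter for the transport of membrane proteins into cilia, both from the mother and in their own genome. Only MZ*tulp3* embryos with a severe ventral curvature of the body were used, so genotype and this selection cannot be told apart. How many embryos went into a library is not given in the sources used here. The labels call the replicates biological and say no more of how they were separated, so the spread between replicates is that between these libraries. The standard errors (SE) below come from limma's fit, which shares the variance over all genes tested. They are therefore not the scatter of a gene's own libraries alone.

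Reads on genes numbered 22589725 to 29735214 per library. The 13 mitochondrial genes took 57.9% and 41.0% of them in control against 52.6% and 71.1% in MZ*tulp3* embryos (replicates 1 and 2). The targeted gene was too little read to check the labels, with 36 reads of *tulp3* in control replicate 2 and 0 in the other libraries. Genes of skeletal muscle, skin, blood and neurons were read in every library, as were 3 of 4 lens genes. The remaining lens gene, *cryaa*, had 0 reads in all 4 libraries. Values below are normalized counts, which are reads divided by a size factor of the library. No kinesin had fewer than 65 reads in any library, and all 10 exceeded 10 normalized counts in every library, as did 64.3% of the 14674 genes tested.

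*kif11* (ENSDARG00000010948), the motor that slides opposed microtubules apart and keeps the spindle bipolar, had the largest log2 fold change of the 10. Control replicates 1 and 2 had 301 and 178 normalized counts of it, MZ*tulp3* replicates 1 and 2 had 1238 and 1268. The groups did not overlap, and even the lower MZ*tulp3* value was 4.11 times the higher control value. Counting error was small beside this gap, since the exact 95% Poisson interval was 269 to 337 in control replicate 1 and 1165 to 1314 in MZ*tulp3* replicate 1. The log2 fold change was 2.42 (standard error 0.41), from 2.05 without control replicate 2 to 2.80 without control replicate 1, and 6.19% of all genes tested had a higher one. In a sample of whole embryos, more cells that contain an RNA and more of that RNA per cell cannot be told apart, for this and every gene below.

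*kif15* (ENSDARG00000012073), which can hold the poles apart together with *kif11* or in its place in mammalian cells, had 174 and 201 normalized counts in control against 373 and 399 in MZ*tulp3* embryos. The replicates were 1.16 times apart in control and 1.07 times in MZ*tulp3* embryos and the groups did not overlap, which gave a log2 fold change of 1.03 ± 0.50 (SE). *kifc1* (ENSDARG00000001558) walks the other way, towards the minus ends at the poles, and opposes *kif11*. Its normalized counts were 219 and 140.0 in control against 776 and 289 in MZ*tulp3* embryos, which gave a log2 fold change of 1.43 ± 0.63 (SE). The groups did not overlap, but the MZ*tulp3* replicates were 2.68 times apart, and the log2 fold change of *kifc1* ran from 0.72 without MZ*tulp3* replicate 1 to 2.14 without MZ*tulp3* replicate 2.

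**Figure D1:**
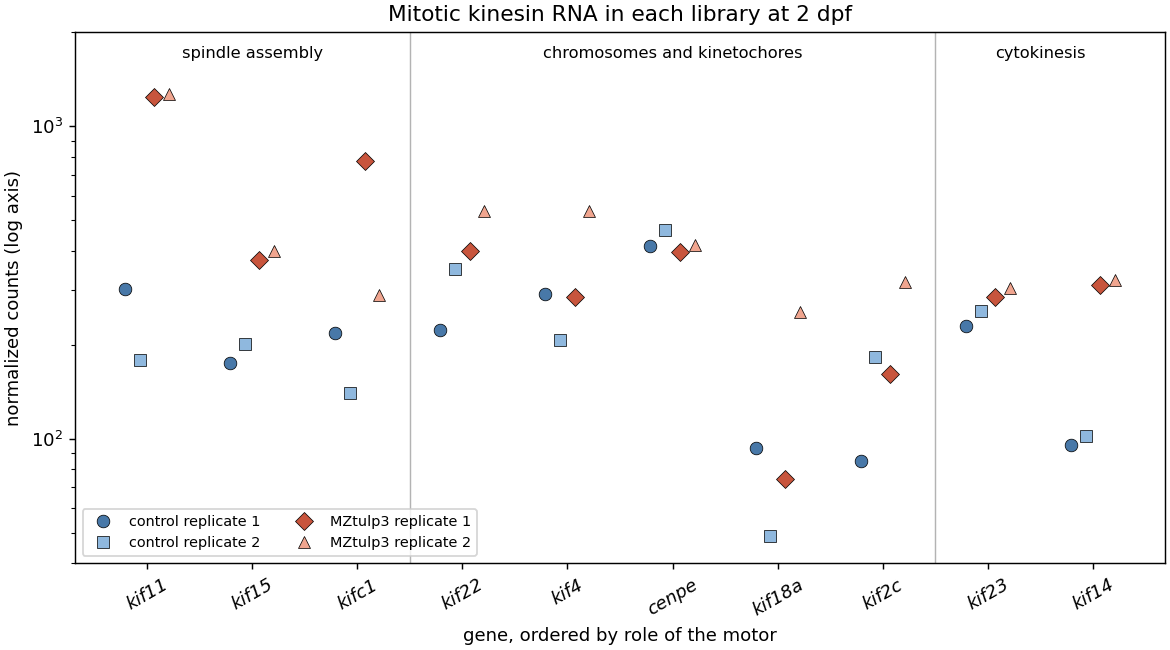
Normalized counts (log axis) of the 10 mitotic kinesins, ordered by the role of the motor, with 1 point for each of the 2 control and 2 MZ*tulp3* libraries. The MZ*tulp3* points lie above the control points for *kif11*, *kif15*, *kifc1*, *kif22*, *kif23* and *kif14*, and the groups overlap for *kif4*, *cenpe*, *kif18a* and *kif2c*.

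Motors that act on chromosomes and kinetochores were read next. *kif22* (ENSDARG00000102624), which binds chromosome arms and pushes them towards the equator, had 222 and 349 normalized counts in control against 398 and 536 in MZ*tulp3* embryos. The groups were narrowly apart, at a log2 fold change of 0.73 ± 0.48 (SE) that ran from 0.40 without control replicate 1 to 1.05 without control replicate 2. *kif4* (ENSDARG00000005462), which binds chromosomes and later the spindle midzone, had 289.8 and 207 in control against 285 and 536 in MZ*tulp3* embryos. MZ*tulp3* replicate 1 lay just under control replicate 1, and the log2 fold change of 0.67 ± 0.53 (SE) ranged between 0.22 (MZ*tulp3* replicate 2 left out) and 1.12 (MZ*tulp3* replicate 1 left out). *kif18a* (ENSDARG00000008022), which dampens the swings of aligned chromosomes, had 93.4 and 48.9 normalized counts in control against 74.4 and 254 in MZ*tulp3* embryos. The MZ*tulp3* libraries lay 3.41 times apart, one between the control values and the other above both, and the log2 fold change of 1.01 ± 1.04 (SE) ranged between 0.13 when MZ*tulp3* replicate 2 was omitted and 1.88 when replicate 1 was. *kif2c* (ENSDARG00000076228), which does not walk but takes microtubules apart at their ends, had 84.7 and 182 normalized counts in control against 161 and 318 in MZ*tulp3* embryos. Its groups overlapped and its replicates were about as far apart as the group means, at a log2 fold change of 0.85 ± 0.75 (SE) that became 0.31 without control replicate 1 and 1.40 without control replicate 2.

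*cenpe* (ENSDARG00000063385), the kinetochore motor that brings stray chromosomes to the equator, was the 1 kinesin with a lower mean in MZ*tulp3* embryos. It had 414 and 466 normalized counts in control against 396 and 417 in MZ*tulp3* embryos, which gave a log2 fold change of -0.11 ± 0.40 (SE). The groups overlapped, and no library was more than 1.13 times its replicate.

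The motors of cytokinesis differed from each other. *kif14* (ENSDARG00000062187), which sits at the midzone and midbody and binds citron kinase and Prc1, had 95.3 and 102 normalized counts in control against 310.3 and 322 in MZ*tulp3* embryos. The replicates were 1.07 times apart in control and 1.04 times in MZ*tulp3* embryos, and the lower MZ*tulp3* value was 3.03 times the higher control value, which gave a log2 fold change of 1.66 ± 0.62 (SE). *kif23* (ENSDARG00000014943), the motor subunit of the centralspindlin complex, had 230.1 and 256 in control against 284 and 303 in MZ*tulp3* embryos. These groups did not overlap either, but the gap was narrow, and the log2 fold change was 0.27 (standard error 0.50).

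**Figure D2:**
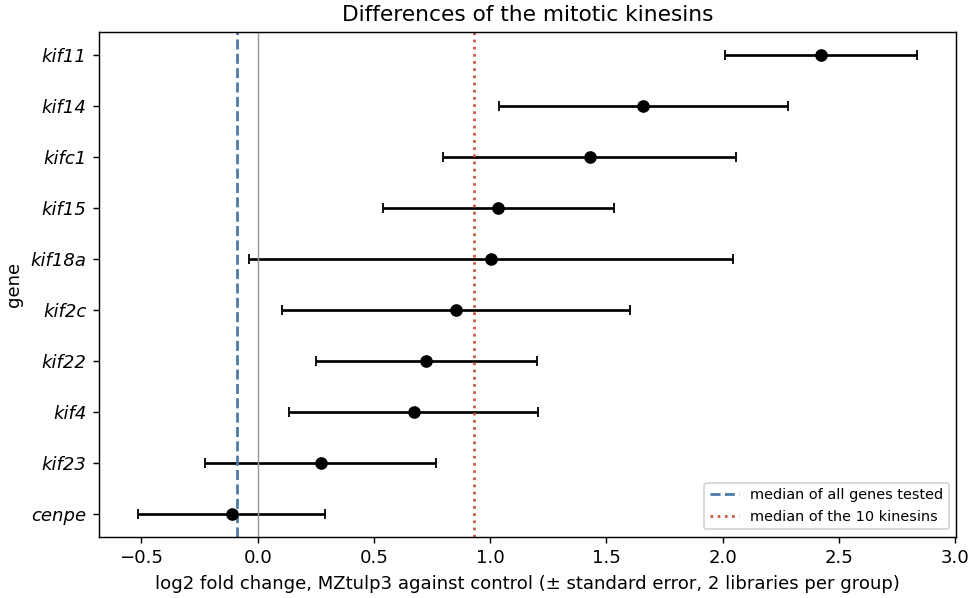
Log2 fold change of each kinesin in MZ*tulp3* against control, with the standard error of the fit across all genes (2 libraries per group). The values run from -0.11 for *cenpe* to 2.42 for *kif11*, the dotted line marks the median of the 10 at 0.93, and the dashed line the median of all genes tested at -0.09.

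Of the 10 kinesins, 9 had a higher mean log2 value in MZ*tulp3* embryos, as had 47.2% of all genes tested, and in 6 both MZ*tulp3* libraries lay above both control libraries, against 20% of all genes. Their median log2 fold change was 0.93, and 0.85 without *kif11*, while the median over all genes was -0.09. In limma's moderated test with Benjamini-Hochberg adjustment over all genes, 0 of the 10 and 0% of all genes were past an adjusted p of 0.05. At an unadjusted p under 0.05, 2 of the 10, *kif11* and *kif14*, were higher, against 4.82% of all genes. DESeq2 on the recovered reads called 1 of the 10, *kif11*, against 0.865% of genes called higher, and edgeR called 0. The adjusted p of *kif11* was 0.379 by limma, 0.00275 by DESeq2 and 0.466 by edgeR. Because the kinesins were chosen with this contrast in view, nothing is read from these counts.

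MZ*tulp3* replicate 2 was the highest of the 4 libraries for 8 of the 10 kinesins, and it was also the library with the largest mitochondrial share, 71.1%, and the fewest genes with at least 1 read, 13277. Without it the median of the 10 was 0.44, and without MZ*tulp3* replicate 1 it was 1.103. For how many of all genes MZ*tulp3* replicate 2 was the highest library was not counted, so nothing is read from the 8 of 10. Whether the mitochondrial share had a part in the kinesin values was not tested. The summed normalized counts of the 10 came to 2124 and 2131 in control against 4297 and 4641 in MZ*tulp3* embryos. With *kif11* left out the sums were 1822 and 1953 in control against 3059 and 3373 in MZ*tulp3* embryos, so the other 9 together were also higher in both MZ*tulp3* libraries. Per 1000000 reads outside the mitochondrial genes, the 10 kinesins took 221 and 222 reads in control against 350.3 and 457 in MZ*tulp3* embryos.

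Ratios within a library do not depend on how libraries are scaled. *kif11* made up 14.2% (95% Wilson interval 12.8 to 15.7) and 8.36% (7.46 to 9.37) of the reads on the 10 kinesins in control replicates 1 and 2. In MZ*tulp3* replicates 1 and 2 it made up 28.8% (27.4 to 30.3) and 27.3% (25.9 to 28.7). The share of *kif14* went from 4.49% and 4.80% in control to 7.22% and 6.94% in MZ*tulp3* embryos, while that of *cenpe* was 19.5% and 21.9% in control against 9.22% and 8.98% in MZ*tulp3* embryos. The share of *kif15*, 8.20% and 9.45% in control against 8.69% and 8.60% in MZ*tulp3* embryos, overlapped between the groups.

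*mki67*, which coats mitotic chromosomes and marks cycling cells, and *pcna*, the clamp of the replication fork, were taken as a yardstick after their values had been seen. *mki67* had 1290.0 and 1134 normalized counts in control against 1723 and 1872 in MZ*tulp3* embryos, and *pcna* had 2689.8 and 1996 in control against 2414 and 3579.9 in MZ*tulp3* embryos. Relative to *mki67*, *kif11* was at 0.234 and 0.157 in control against 0.718 and 0.677 in MZ*tulp3* embryos. The other 9 kinesins, summed, were at 1.41 and 1.72 times *mki67* in control against 1.78 and 1.80 times in MZ*tulp3* embryos. Both ratios to *mki67* were higher in both MZ*tulp3* libraries, that of *kif11* by a wide gap and that of the other 9 by a narrow one. Relative to *pcna*, *kif11* was at 0.112 and 0.0893 in control against 0.513 and 0.354 in MZ*tulp3* embryos, but the other 9 were at 0.678 and 0.978 in control against 1.27 and 0.942 in MZ*tulp3* embryos and overlapped between the groups. Relative to the kinase *cdk1* the other 9 overlapped as well, at 4.57 and 8.31 in control against 7.28 and 8.01 in MZ*tulp3* embryos, while *kif11* was at 0.756 and 0.758 in control against 2.95 and 3.01 in MZ*tulp3* embryos.

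**Figure D3:**
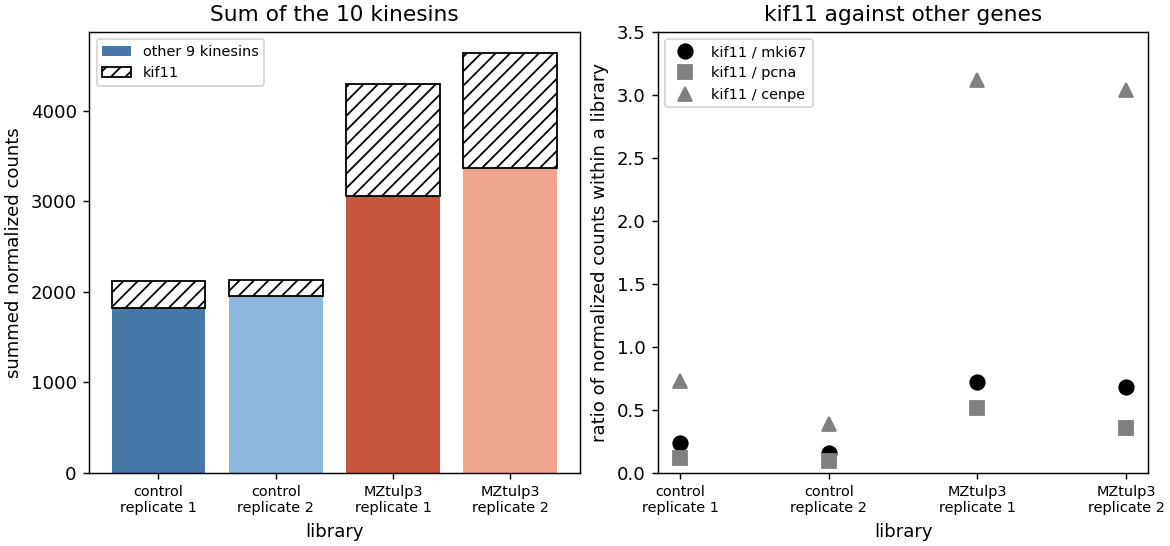
Left, summed normalized counts of the 10 kinesins in each library, with *kif11* hatched on top of the other 9, from 2124 in control replicate 1 to 4641 in MZ*tulp3* replicate 2. Right, the ratio of *kif11* to *mki67*, *pcna* and *cenpe* within each library, where both MZ*tulp3* points exceed the control points for each of the 3 genes.

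The partners of the motors were then examined, from lists written by function. For *kif14*, the partner citron kinase (*cita*) had 69.3 and 0 normalized counts in control against 322 and 217 in MZ*tulp3* embryos, which gave a log2 fold change of 4.48 ± 1.86 (SE). It was the gene of its list with the largest value, and 1 control library without any read weighs heavily in it. *prc1a* and *prc1b* encode the bundler of midzone microtubules on which *kif14* and *kif4* gather. *prc1a* had 43.3 and 81.2 normalized counts in control against 199 and 336 in MZ*tulp3* embryos, and *prc1b* had 101 and 58.1 in control against 126 and 385 in MZ*tulp3* embryos. The groups did not overlap in any of these 3 genes, with log2 fold changes of 2.09 for *prc1a* (standard error 0.83) and 1.50 for *prc1b* (standard error 0.89). By limma the adjusted p was at least 0.381 for each of them, so none was past the threshold.

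*racgap1*, the other subunit of centralspindlin and the partner of *kif23*, had 195 and 184 normalized counts in control against 167 and 56.7 in MZ*tulp3* embryos. It was lower in both MZ*tulp3* libraries, where *kif23* was slightly higher, at a log2 difference of -0.94 ± 0.83 (SE; limma adjusted p = 0.677). Aurora A (*aurka*), the kinase of the spindle poles, had 201 and 207 in control against 169 and 59.0 in MZ*tulp3* embryos (log2 fold change -1.01 ± 0.81, SE). Its activator *tpx2*, which also brings *kif15* to the spindle in mammalian cells, had 698 and 695 in control against 948 and 726 in MZ*tulp3* embryos. The groups of *tpx2* did not overlap, at a log2 fold change of 0.25 ± 0.34 (SE). MZ*tulp3* replicate 2 had the lowest value of the 4 for both *racgap1* and *aurka*, although it had the highest for most kinesins. Of 28 spindle and midzone partners tested, 13 (46.4%) lay above and 6 (21.4%) below control in both libraries, against 20% and 23.3% of all genes. The median log2 fold change was 0.47, and 0.30 without MZ*tulp3* replicate 1. At an unadjusted p under 0.05, 2 were higher and 2 lower, against 4.82% and 7.94% of all genes. The lowest was *haus1*, a part of the augmin complex that branches spindle microtubules, with 168 and 101 in control against 30.9 and 0 in MZ*tulp3* embryos.

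**Figure D4:**
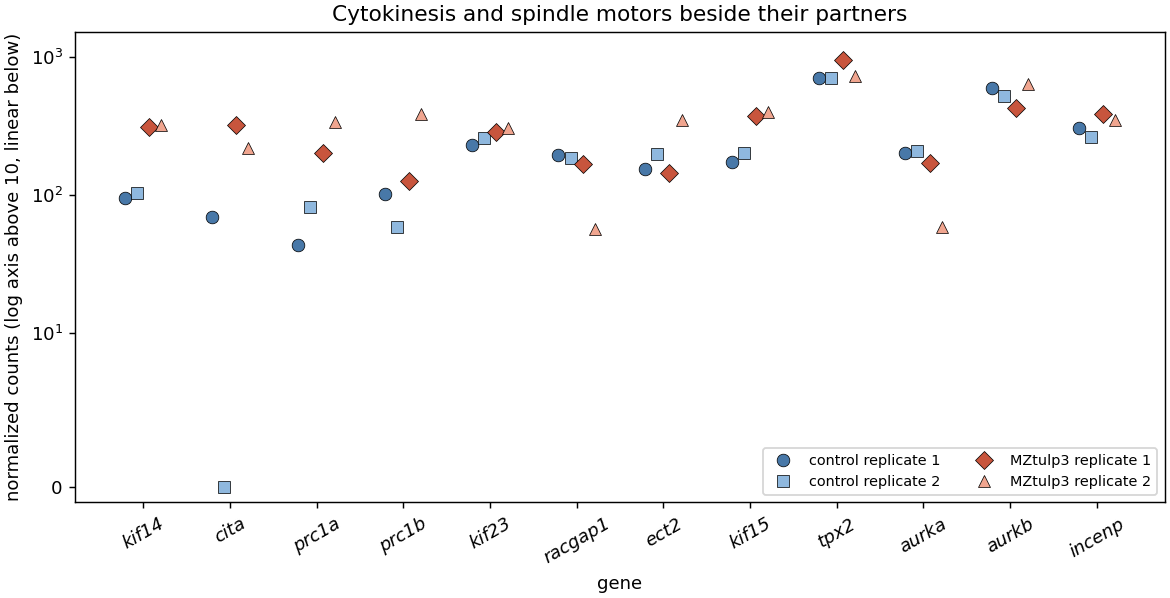
Normalized counts of *kif14*, *kif23* and *kif15* beside genes of proteins that work with them or at the same structures, 1 point per library (log axis above 10, linear below). *kif14*, *cita*, *prc1a*, *prc1b*, *kif23*, *kif15*, *tpx2* and *incenp* are higher in both MZ*tulp3* libraries. *racgap1* and *aurka* are lower in both, and *ect2* and *aurkb* overlap.

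At the kinetochore, Aurora B (*aurkb*), which regulates *kif2c*, had 588 and 516 normalized counts in control against 428 and 635 in MZ*tulp3* embryos, which gave a log2 fold change of -0.08 ± 0.40 (SE). *bub1bb*, a checkpoint protein whose mammalian counterpart binds Cenpe, had 44.3 and 26.4 in control against 56.1 and 56.7 in MZ*tulp3* embryos, and its log2 fold change of 0.69 had a standard error of 1.37. Of 30 genes of the kinetochore, checkpoint and chromosomal passenger complex tested, 10 (33.3%) lay above and 1 (3.33%), *ndc80*, below control in both libraries, against 20% and 23.3% of all genes. The median log2 fold change of 0.39 became 0.08 without control replicate 1, and 0.10 or 0.72 when MZ*tulp3* replicate 2 or 1 was omitted. The highest was *dsn1*, a kinetochore base protein, at 39.5 and 13.9 in control against 109 and 149.9 in MZ*tulp3* embryos, and the lowest *cenpn*, which binds centromeric chromatin, at 97.2 and 154 in control against 121 and 3.54 in MZ*tulp3* embryos. In this list 1 gene was higher at an unadjusted p under 0.05, against 4.82% of all genes, and 0 were lower, against 7.94%.

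Among regulators of entry into and exit from mitosis, cyclin B1 (*ccnb1*) had 472 and 475 normalized counts in control against 846 and 994 in MZ*tulp3* embryos, which gave a log2 fold change of 0.95 ± 0.34 (SE). Its kinase *cdk1* had 399 and 235 in control against 420.2 and 421 in MZ*tulp3* embryos (log2 fold change 0.46 ± 0.47, SE). Polo-like kinase *plk1* had 653 and 396 in control against 755 and 702 in MZ*tulp3* embryos (log2 fold change 0.52 ± 0.40, SE). For these 3 genes MZ*tulp3* values exceeded control values, by little in *cdk1* and *plk1*, and the smallest adjusted p by limma was 0.379. Of the 34 regulators tested, 9 (26.5%) lay above and 6 (17.6%) below, near the 20% and 23.3% of all genes. Their median of 0.31 turned to -0.03 without MZ*tulp3* replicate 2, and was 0.16 without either control replicate and 0.47 without MZ*tulp3* replicate 1. The highest was *bora*, an activator of Aurora A, with 9.63 and 1.32 in control against 59.5 and 50.8 in MZ*tulp3* embryos. The lowest was *cdc25d*, a phosphatase of the Cdc25 family, with 49.1 and 27.7 in control against 0 reads in either MZ*tulp3* library, at least 11.0-fold lower when 3 reads are allowed in each of the latter.

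Chromosome condensation genes, the condensin subunits with *top2a* and *mki67*, numbered 10, of which 5 (50.0%) lay above and 0 below, against 20% and 23.3% of all genes. Their median was 0.58, and 0.89 without control replicate 1 or 0.87 without MZ*tulp3* replicate 1, with values from -0.10 for *ncapg* to 1.16 for *ncaph2*. DNA replication genes (41) had a median of 0.15, with 10 (24.4%) above and 6 (14.6%) below, against the same shares of all genes. This median ran from 0.03 without control replicate 2 to 0.41 without MZ*tulp3* replicate 1, and the 2 extremes, *orc1* and *rrm2*, each rested on a library at or near 0. Neither limma nor DESeq2 called a gene of these lists (0 by either).

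**Figure D5:**
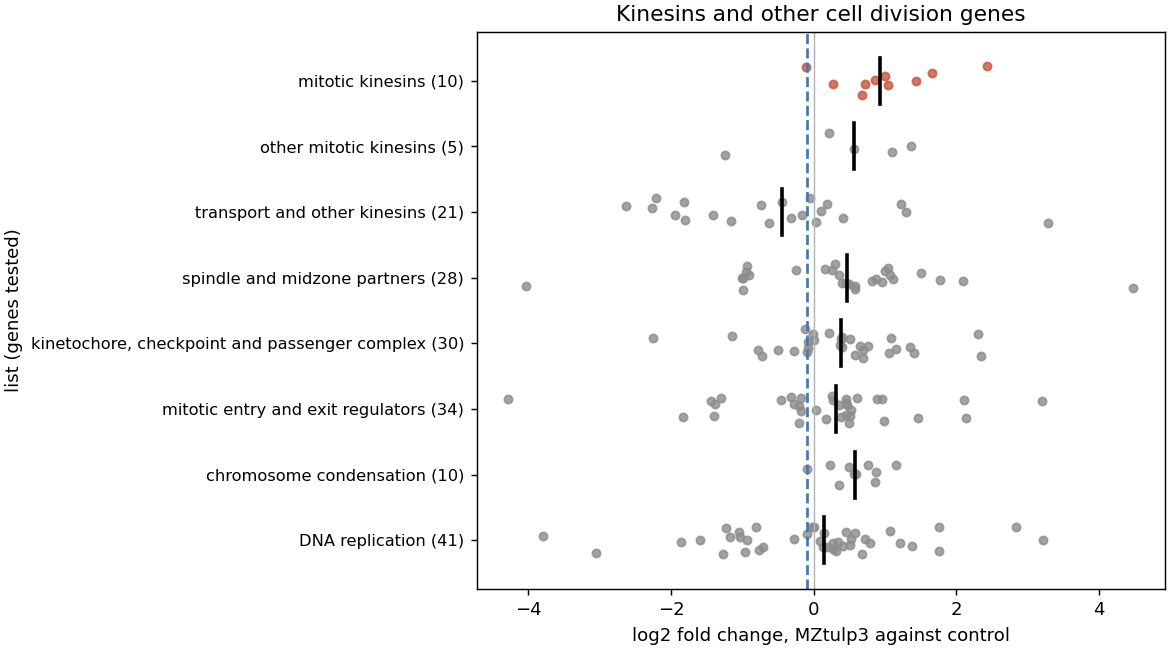
Log2 fold change in MZ*tulp3* against control of each gene tested in the list of mitotic kinesins (coloured) and in the other lists (grey), with the median of each list as a black bar and the median of all genes tested (-0.09) as a dashed line. The medians run from -0.44 for transport and other kinesins to 0.93 for the 10 mitotic kinesins.

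Kinesins outside the 10 were split by what they do. A list written as mitotic kinesins not among the 10 had 5 genes tested, but 1 of them, *kif26ba*, is not known as a spindle motor. *kif20ba*, a cytokinesis motor and the highest of them, had 56.8 and 136 normalized counts in control against 167 and 313 in MZ*tulp3* embryos (log2 fold change 1.36 ± 0.82, SE). The values of *kif20bb*, *kif20a* and *kif2a* overlapped between the groups, with log2 fold changes from 0.21 to 1.103, and *kif26ba* had the lowest value of the list, -1.25.

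The 21 transport and other kinesins tested, which carry vesicles along axons, build cilia or relay signals, were centred on a log2 fold change of -0.44 (median), which was -0.83 when control replicate 1 was omitted, -0.66 when MZ*tulp3* replicate 1 was and -0.17 when MZ*tulp3* replicate 2 was. Of them 2 (9.52%) lay above and 6 (28.6%) below control in both libraries, against 20% and 23.3% of all genes. *kif1b*, an axonal transport motor, had 885 and 1172 normalized counts in control against 355 and 235 in MZ*tulp3* embryos, which gave a log2 fold change of -1.81 ± 0.41 (SE). DESeq2 called it lower, against 1.41% of genes called lower (adjusted p = 0.0490 by DESeq2 and 0.379 by limma). *kif1ab*, another axonal motor and the highest of the list, had 12.5 and 0 in control against 76.7 and 33.1 in MZ*tulp3* embryos, and the lowest, *kif19*, a motor of motile cilia, had 97.2 and 104 in control against 135 and 0 in MZ*tulp3* embryos. Each had a library with 0 reads, and the standard errors of their log2 fold changes were 1.82 and 2.16.

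Markers of cell types were read beside these values. Over all genes tested, 20% lay above and 23.3% below control in both MZ*tulp3* libraries. All 4 skin keratins were above control in both MZ*tulp3* libraries, and their sum was 176764 and 128520.0 normalized counts in control against 310913 and 425636 in MZ*tulp3* embryos. DESeq2 called all 4 higher (adjusted p 0.0038 to 0.0465), against 0.865% of genes called higher. Their adjusted p was 0.379 by limma and 0.483 to 0.502 by edgeR. Of 5 neuron genes 2, *snap25a* and *elavl4*, lay below control in both libraries, and the sum was 9583 and 15210.4 in control against 8904 and 6501 in MZ*tulp3* embryos. Of 10 genes of neural and retinal progenitors, in which dividing cells are found, 2 lay above and 2 below, near the shares of all genes. Their median log2 fold change was 0.05, and their sum was 13555 and 17181 in control against 15464 and 16594 in MZ*tulp3* embryos. Muscle genes summed to 161751 and 86815 in control against 212565 and 134927 in MZ*tulp3* embryos, with 1 of 5, *myhz2*, below. Red blood cell genes, which all overlapped, summed to 6792 and 4063 in control against 3785 and 11048 in MZ*tulp3* embryos, highest in replicate 2. The egg coat gene *zp2.1* had 343 reads in MZ*tulp3* replicate 2, the library highest for 8 of the 10 kinesins, and 0 in the other 3 libraries, while the oocyte gene *buc* had 0 in all 4. DESeq2 called *zp2.1* on the reads of MZ*tulp3* replicate 2 alone (adjusted p = 6.32e-17), and the filter of the limma test removed it. The list written for oocyte or maternal genes had 6 names, of which 4 matched a row. Its *dazl* and *ddx4* were little read in any library and had 0 reads in MZ*tulp3* replicate 2. Both had 32 reads in MZ*tulp3* replicate 1, and *ddx4* also had 28 in control replicate 2. The part of these cell types in the kinesin values was not tested.

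The genes next to *kif11* along the chromosome were read in the same way. By gene order in RefSeq's GRCz12tu annotation (not the build behind the counts, used for order alone) 10 neighbours were taken, 5 on each side, among genes that the table lists by the same symbol. Of the 8 that were tested, 0 lay above control in both MZ*tulp3* libraries and 5 lay below, against 20% and 23.3% of all genes. Except for *dicer1*, these 5 had at most 167 reads in any library, with fewer in each MZ*tulp3* library than in either control library. In MZ*tulp3* replicate 2, *galcb*, *gsc* and *slc22a15* had 0 reads and *reep3a* had 5. Adjacent in this order, *dicer1*, which cuts microRNA precursors, had 594 and 554 normalized counts in control against 313 and 445 in MZ*tulp3* embryos. On the other side of *kif11*, *slc22a15* had 81.8 and 110.3 in control against 12.6 and 0 in MZ*tulp3* embryos. These neighbours were looked up after the values of *kif11* were known.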

How the data were processed

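Poly(A)-selected RNA of whole embryos was sequenced. According to the study and the submitters' processing notes, reads were processed with Trim Galore, STAR and RSEM on GRCz10. The authors deposited, per gene, a signal that is the read count divided by a DESeq2 size factor. Multiplying by the recovered factor gave whole reads in every library, within 0.01 for low counts. For larger counts the tolerance grew with the count, so the check says little for the most read genes. The columns of fold changes and p-values hold the authors' own comparison and were not used, nor were 4 columns of transformed values.

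Genes with at least 10 normalized counts in at least 2 libraries (14674) were tested on log2(value + 2) with limma 3.58.1 (R 4.3.3), 2 control against 2 MZ*tulp3* libraries, with Benjamini-Hochberg adjustment and a threshold of 0.05. Fold changes are on this scale, where the added 2 can shrink changes of low genes. A single library at or near 0 can instead enlarge them. The log2 fold change by limma against DESeq2 was 4.48 against 2.96 for *cita* and -3.80 against -1.50 for *rrm2*. For *kif19* it was -2.63 against -0.58, while *cdc25d*, unread in both MZ*tulp3* libraries, had -4.28 against -7.49. Recovered reads were tested with DESeq2 1.42.0 and edgeR 4.0.16. Other filters, pseudocounts, TMM scaling, a replicate block and the omission of each library were alternatives. With 2 against 2 libraries, an exact permutation test cannot give a two-sided p below 0.333. Intervals cover counting error only. The code was tested on simulated data.

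The kinesins and all lists were chosen with earlier results of these data known. Named were all 10 kinesins, fixed partners (*citb* matched no row), the highest and lowest log2 fold change of each list and genes called by any test. Other genes, such as *ndc80*, the markers and the neighbours of *kif11*, were named after their values were seen. No sequences are shown.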

Additional observations from a re-analysis of the deposited data

How the results depend on the processing

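No alternative turned the direction of any of the 10 kinesins. The number of kinesins called was 0 by limma and 1 by DESeq2. It was 1 when 10 normalized counts were required in every library and 1 with the replicate block. Where 1 was called, the kinesin was *kif11*. Over all genes the number called was 0 by limma, 326 by DESeq2, 112 with the filter in every library and 329 with the replicate block. Leaving out each library gave 18 (without control replicate 2) to 347 (without MZ*tulp3* replicate 1) genes. The labels do not say whether same-numbered libraries of the groups belong together. Their deviations had a correlation of -0.0029 across genes, which are not independent replicates. With 2 libraries per group, this value cannot show whether same-numbered libraries shared a batch. The median log2 fold change of the 10 ran from 0.44 without MZ*tulp3* replicate 2 to 1.103 without MZ*tulp3* replicate 1. With 2 libraries per group, and a mitochondrial share that differed between libraries, a p that misses the threshold does not show that values were alike.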
